A study of Sus scrofa with 9 samples.

Results

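The extracellular matrix genes on the array were the collagens, laminins, fibulins, fibrillins, thrombospondins, lysyl oxidases, matrix metalloproteinases, ADAMTS proteases and TIMPs that could be named by symbol, with DCN, LUM, BGN, FMOD, SPARC, POSTN, FN1, ELN, TNC, SPP1 and VCAN. A probe was taken when its RefSeq transcript accession, without the version, matched one of these symbols in the pig RefSeq gene table. This gave 30 genes with 74 probes, out of 3194 named genes and 43581 probes, and 25 of the 30 genes were bright enough to be tested. No laminin and no fibulin was among them, and COL1A1, COL3A1, BGN, FMOD, FN1 and ELN were not analysed here.

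The study measured longissimus dorsi, the long muscle of the back, of Bama minipigs, a small pig breed used as an obesity model, on single-colour Agilent arrays with 1 array per animal. Of the animals, 6 received a feed rich in fat and sucrose (HFHSD) made of 53% basal feed, 37% sucrose and 10% lard, and 3 control diet animals (CD) ate standard pig chow. Both groups were fed for 23 months from an age of 6 months, on a restricted schedule, and were gonadally intact males and females. Which animals were male is not in the labels, which name 3 CD animals in the design text and 6 in the growth protocol, of which 3 are analysed here.

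Skeletal muscle fibres are embedded in a matrix made largely by fibroblasts. Fibrillar collagens give it tensile strength, lysyl oxidase crosslinks collagen and elastin outside the cell, and small proteoglycans such as decorin set the spacing of collagen fibrils. Matrix metalloproteinases and ADAMTS proteases cut these proteins, and TIMPs block the metalloproteinases. Matrix build-up between fibres, often with fat cells, is a known feature of obese and ageing muscle.

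No matrix gene passed the test between the diets. The closest was LOX, the crosslinking enzyme, which was 2.64-fold brighter in HFHSD. It was followed by MMP11, a metalloproteinase also called stromelysin 3, at 2.46-fold, and by TIMP1, a metalloproteinase inhibitor, at 0.679-fold. On their brightest probes, COL1A2, COL5A2, DCN, LUM and SPARC differed by -0.22 to 0.23 on the log2 scale. These small values depended on the setting: other probes reached 0.54 for COL5A2 and 0.68 for LUM, COL1A2 was -0.55 and LUM -0.49 without CD 3, and DCN was 0.61 and SPARC 0.49 with normexp background correction and percentile scaling.

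All levels here are log2 intensity minus the array's own 75th percentile, so 0 is the 75th percentile of that array, and differences are HFHSD minus CD on that log2 scale. A gene is represented by its brightest tested probe unless other probes are named. Adjusted p-values are from limma over all tested probes with Benjamini-Hochberg adjustment and a threshold of 0.05. Of the 25 genes, 0 passed, where 1.23% of all 27922 tested probes and 0.995% of the 2613 tested named genes did. The array-wide count behind the first share was 344 probes. Leaving out a CD animal lowered it to 24 (CD 1), 85 (CD 2) or 21 (CD 3). Leaving out an HFHSD animal gave 280 (HFHSD 1), 120 (HFHSD 2), 76 (HFHSD 3), 359 (HFHSD 4), 208 (HFHSD 5) or 167 (HFHSD 6). The count of matrix genes was 0 in each of these. At an unadjusted p under 0.05 there were 3 genes, or 12.0%, against 18.4% of named genes and 16.5% of probes. The HFHSD and CD animals did not overlap for 3 genes, against 13.1% of named genes and 10.9% of probes. These shares of the matrix genes lay near or below those of the array as a whole. The median difference over the 25 genes was -0.17, with 11 genes higher and 14 lower, beside -0.085 over all named genes and -0.024 over all tested probes.

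**Figure D1:**
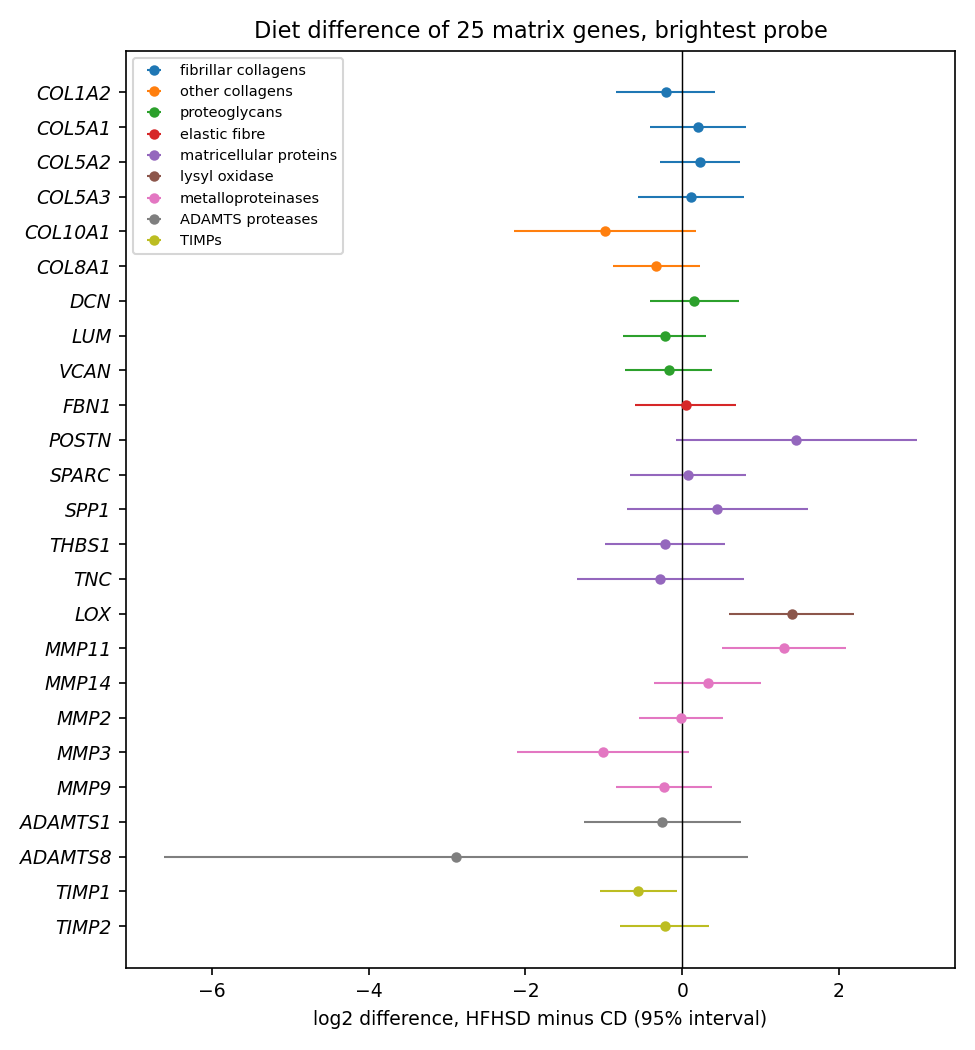
Log2 difference (HFHSD minus CD, x axis) of the brightest probe of each of the 25 tested matrix genes, with its 95% interval from the limma fit, coloured by role. The intervals of LOX, MMP11 and TIMP1 lie on 1 side of 0, no gene passed after adjustment, and ADAMTS8 has by far the widest interval.

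For 14 of the 25 genes the 95% interval of the difference lay within 1 log2 unit on either side of 0. All 8 tested markers of the skeletal muscle fibre were well above background on all 9 arrays. Detection differed between arrays: CD 1 had 36.8% of its probes well above background, whereas the other 8 arrays had 51.2% to 68.9%. The arrays lay on 3 slides. HFHSD 5 and HFHSD 6 were on slide 1, which had a scan day of its own, slide 2 held HFHSD 1, 3 and 4 with CD 1, and slide 3 held HFHSD 2 with CD 2 and CD 3. Within slides 2 and 3, the difference had the same sign in 16 of the 25 genes and opposite signs in 9. In whole muscle, more cells of a type and more RNA per cell cannot be told apart.

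Fibrillar collagens form the cables of the matrix. COL1A2, a chain of type I collagen, had levels of 2.69, 2.66 and 1.66 in the CD animals. In HFHSD it ran from 1.78 through a median of 2.14 to 2.56. All HFHSD values lay inside the CD range, and the difference was -0.21 (SE 0.28, 95% interval -0.84 to 0.42, adjusted p = 0.786). Type V collagen starts and limits the width of type I fibrils, and its chains COL5A1, COL5A2 and COL5A3 were higher by 0.20, 0.23 and 0.11, with adjusted p-values of 0.790, 0.703 and 0.906. COL5A2 had CD levels of 1.76, 1.46 and 1.35 and HFHSD levels from 1.34 through a median of 1.70 to 2.21. COL5A1 had CD levels of -2.26, -2.07 and -2.63 and HFHSD levels from -2.84 through a median of -1.99 to -1.72. In both genes the groups overlapped, and HFHSD 5 was the lowest of all 9 animals. All 4 probes of COL5A2 were higher in HFHSD, by 0.23 to 0.54, and none passed. COL5A1 had 2 probes higher and 1 lower, at -0.31, and its brightest probe was well above background on 2 of 3 CD arrays.

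Of the other collagens, COL8A1, a short-chain collagen of vessel walls, had CD levels of 0.23, 0.67 and 0.15 and HFHSD levels from -0.55 through a median of 0.058 to 0.40. The groups overlapped, with HFHSD 3 lowest, and the difference was -0.33 (SE 0.25, adjusted p = 0.580). COL10A1, the collagen of hypertrophic cartilage, had CD levels of -4.13, -3.69 and -3.50 and HFHSD levels from -5.65 through a median of -4.89 to -3.30. HFHSD 6 was the only HFHSD animal above every CD animal. The difference was -0.99 (SE 0.52, adjusted p = 0.390), and the probe was well above background on only 2 of 3 CD and 2 of 6 HFHSD arrays. It was -0.40 with quantile normalisation, -0.48 and -0.038 with normexp and percentile or quantile scaling, and -1.12 with slide as a fixed block (unadjusted p = 0.0048, adjusted p = 0.114). COL19A1 was too dim to be tested, being well above background on 2 of 9 arrays, both HFHSD.

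Among the proteoglycans, DCN (decorin) had CD levels of 6.94, 6.49 and 5.90. In HFHSD it ran from 6.18 through a median of 6.62 to 6.90. The groups overlapped and all 4 probes were higher by a little, 0.12 to 0.31, with 0.15 for the brightest (SE 0.26, 95% interval -0.42 to 0.72, adjusted p = 0.833). The sign for DCN turned without CD 3, to -0.12. LUM (lumican), which like decorin binds collagen fibrils, had CD levels of 1.78, 1.36 and 0.78 and HFHSD levels from 0.84 through a median of 1.11 to 1.38. Every HFHSD value lay inside the CD range, and the difference was -0.22 (SE 0.24, adjusted p = 0.724). The 9 probes of LUM split by brightness: the 4 brightest were lower in HFHSD, by -0.29 to -0.099, and the 5 dimmer ones were higher, by 0.061 to 0.68. VCAN (versican), a large proteoglycan, had CD levels of -2.49, -2.12 and -1.96 and HFHSD levels from -2.92 through a median of -2.33 to -1.81. The groups overlapped, with HFHSD 4 highest and HFHSD 1 lowest, and the difference was -0.17 (SE 0.25, adjusted p = 0.805). The VCAN probe was well above background on 2 of 3 CD arrays.

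FBN1 (fibrillin-1), the backbone of elastic microfibrils, was -0.92, -2.39 and -1.73 in CD and ran from -1.86 to -1.46 in HFHSD. On this brightest probe the 6 HFHSD animals were closer together than the 3 CD animals, with SDs of 0.15 and 0.74. Another FBN1 probe, of nearly equal brightness, had SDs of 0.22 in HFHSD and 0.23 in CD and a difference of -0.18. The dimmest of the 3 probes had SDs of 0.31 and 0.72 and a difference of 0.13. The brightest probe's difference of 0.043 (SE 0.29, adjusted p = 0.967) turned to -0.0057 with quantile normalisation and to -0.31 without CD 2.

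LOX, measured by 1 probe of transcript NM_001206403, had the smallest p of the matrix genes. Its CD levels were -0.25, 0.39 and -1.06, and its HFHSD levels ran from 0.67 through a median of 0.95 to 1.87. Every HFHSD animal lay above every CD animal, HFHSD 1 highest and CD 3 lowest. The difference was 1.40 (SE 0.36, 95% interval 0.60 to 2.20, unadjusted p = 0.0030, adjusted p = 0.0871). It was 1.50 within slide 2 and 1.71 within slide 3. Over all alternatives the difference stayed between 1.0 and 1.75 and the adjusted p between 0.0441 and 0.334. It passed in 1 of 22, where only probes well above background on all arrays were tested (adjusted p = 0.0441). Without CD 3 the difference was 1.02 (adjusted p = 0.334).

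Because a scale factor cancels within an array, LOX was also set against COL1A2, a gene of its main substrate, on the same array. This pair was chosen after the values were seen and was not tested. The LOX minus COL1A2 difference moved by 1.61 between the diets, its CD and HFHSD values did not overlap, and it moved by 0.94 with normexp and percentile scaling. The shift is the difference between the values already given for the 2 genes and adds no evidence to them.

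**Figure D2:**
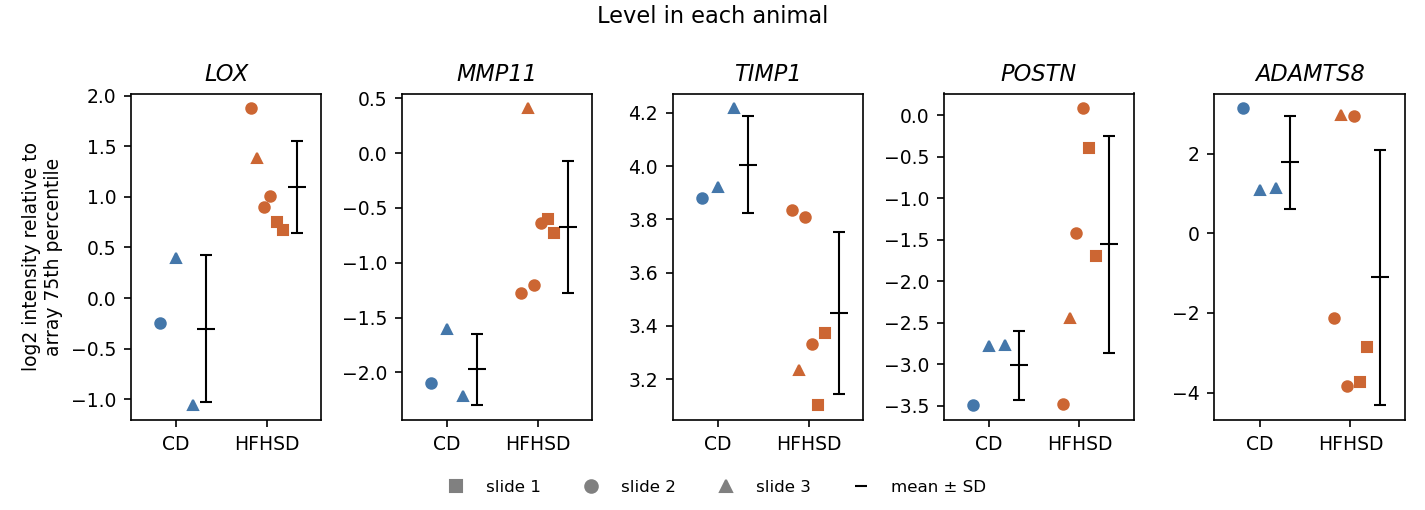
Log2 intensity relative to the array's 75th percentile (y axis, own scale for each gene) of LOX, MMP11, TIMP1, POSTN and ADAMTS8 in each CD and HFHSD animal. Marker shape gives the slide and the bars are mean and SD. HFHSD and CD do not overlap for LOX, MMP11 and TIMP1, and ADAMTS8 spans from -3.83 to 2.97 within HFHSD.

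Matricellular proteins modulate how cells hold the matrix and are often induced in repair. POSTN (periostin), which binds collagen and helps lysyl oxidase activation, had CD levels of -3.49, -2.78 and -2.76. In HFHSD it ran from -3.48 through a median of -1.56 to 0.08. HFHSD 4 and HFHSD 5 were highest, while HFHSD 1 was at the level of the lowest CD animal. The difference was 1.46 (SE 0.69, 95% interval -0.084 to 3.00, adjusted p = 0.335), and 0.20 with normexp and percentile scaling. It was 1.89 within slide 2 and 0.34 within slide 3. The order of the animals repeated in part across probes: HFHSD 4 was the highest HFHSD animal on 6 of 6 probes, and HFHSD 5 came next on 5 of them. HFHSD 1 did not exceed the highest CD value on any of the 6. The place of HFHSD 6 varied: it was at -1.69 on the brightest probe, above every CD animal, and at -4.24 on another, the lowest of all animals. All 6 probes were higher in HFHSD, by 0.49 to 1.74, and none passed. The brightest probe was well above background on 2 of 3 CD arrays. The SD of POSTN in HFHSD was 1.31, larger than that of 95.6% of tested probes.

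SPARC (osteonectin), a collagen-binding glycoprotein, had CD levels of 5.07, 4.87 and 4.13 and HFHSD levels from 4.18 through a median of 4.88 to 5.47. The groups overlapped, with a difference of 0.073 (SE 0.33, adjusted p = 0.947), and 5 of its 7 probes were higher and 2 lower. THBS1 (thrombospondin-1), an activator of latent TGF-beta, had CD levels of 2.09, 1.50 and 1.71 and HFHSD levels from 1.01 through a median of 1.35 to 2.47. Its brightest probe differed by -0.22 (SE 0.34, adjusted p = 0.820), whereas the 5 dimmer probes were higher in HFHSD, by 0.53 to 0.68, and none passed. The brightest probe differed by -0.84 within slide 2 and -0.60 within slide 3, and by -0.72 with slide as a fixed block (unadjusted p = 0.0068, adjusted p = 0.126). CD 1 was the lowest CD animal on 5 of 5 dimmer probes and the highest on the brightest. TNC (tenascin-C), made at myotendinous junctions and in repair, differed by -0.28 (SE 0.48, adjusted p = 0.841). The TNC difference was 0.85 within slide 2 and -0.83 within slide 3. Its CD levels ran from -2.44 to -0.49, and its brightest probe was well above background on 2 of 3 CD arrays. SPP1 (osteopontin), a secreted ligand of integrins and CD44, had CD levels of -1.40, -3.28 and -2.28 and HFHSD levels from -2.53 through a median of -2.18 to -0.55. HFHSD 1 was highest and CD 2 lowest, and the difference was 0.45 (SE 0.52, adjusted p = 0.746), with 2 of its 4 probes in each direction.

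**Figure D3:**
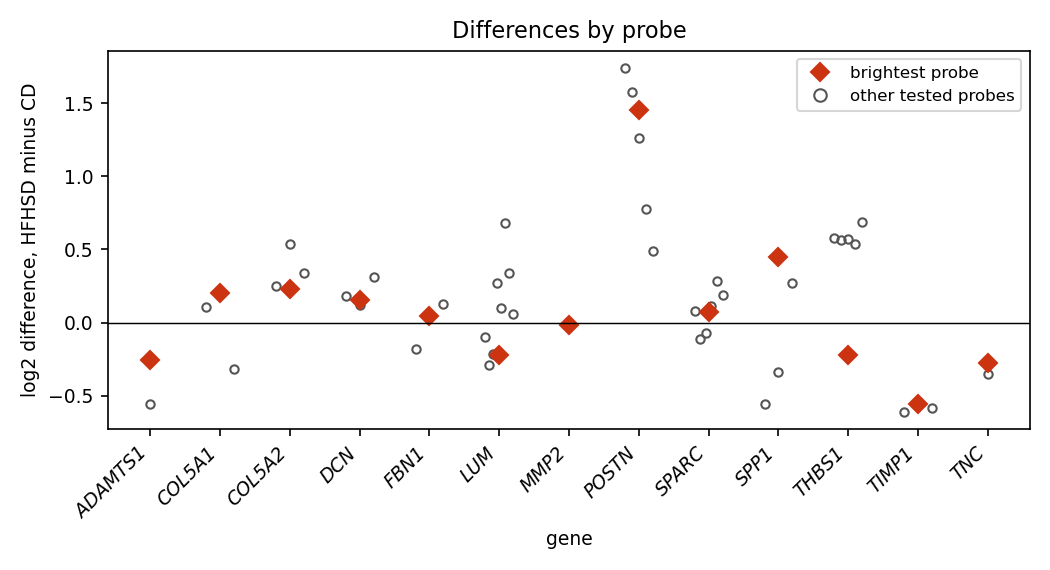
Log2 difference (HFHSD minus CD, y axis) of every tested probe of the 13 matrix genes with several tested probes. The filled diamond is the brightest probe and open circles are the others. All 6 POSTN probes lie above 0 and all 3 TIMP1 probes below it, while LUM, THBS1, SPP1, SPARC, COL5A1 and FBN1 have probes on both sides.

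The proteases had 5 of 9 metalloproteinases bright enough to test. MMP11 had CD levels of -2.10, -1.60 and -2.22 and HFHSD levels from -1.28 through a median of -0.68 to 0.41. Every HFHSD animal was above every CD animal, and HFHSD 2 was highest. The difference was 1.30 (SE 0.35, 95% interval 0.51 to 2.09, unadjusted p = 0.0044, adjusted p = 0.101), 1.06 within slide 2 and 2.32 within slide 3. Its 1 probe exceeded background clearly on all 6 HFHSD arrays but on 2 of the 3 CD arrays. MMP11 passed with slide as a random block (1.48, adjusted p = 0.0482), and its difference was 0.45 with normexp and percentile scaling. The adjusted p ranged from 0.0482 to 0.609 over the alternatives.

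MMP2 (gelatinase A), which degrades type IV collagen and gelatin, differed by -0.017 (SE 0.24, 95% interval -0.55 to 0.52, adjusted p = 0.984), a sign that turned in 10 of 22 alternatives. Its CD levels were 3.92, 4.01 and 3.77, inside the HFHSD range of 3.41 to 4.25. MMP14, the membrane enzyme that activates pro-MMP2, had CD levels of 1.47, 1.63 and 1.53 and HFHSD levels from 1.14 through a median of 1.80 to 2.62. The CD animals lay close together inside the HFHSD range, and the difference was 0.32 (SE 0.31, adjusted p = 0.681). MMP9 (gelatinase B), largely a leukocyte product, differed by -0.24 (SE 0.27, adjusted p = 0.748), with overlapping groups. MMP3 (stromelysin-1) had CD levels of -2.60, -2.97 and -2.42 and HFHSD levels from -4.66 through a median of -3.88 to -2.16. HFHSD 6 was highest and the other HFHSD animals lay below every CD value, and the difference was -1.01 (SE 0.49, adjusted p = 0.351). The MMP3 probe was well above background on 2 of 3 CD and 3 of 6 HFHSD arrays. Its difference was -0.53 and -0.17 with normexp and percentile or quantile scaling, and ran from -1.32 to -0.17 over all alternatives. MMP1, MMP17 and MMP20 were well above background on 0 of 9 arrays and MMP12 on 2, both HFHSD, so none of these was tested.

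TIMP1 had CD levels of 3.88, 3.92 and 4.22 and HFHSD levels from 3.10 through a median of 3.35 to 3.83. Every HFHSD animal was below every CD animal, although HFHSD 1 and HFHSD 3 came close. The difference was -0.56 (SE 0.22, 95% interval -1.05 to -0.068, unadjusted p = 0.030, adjusted p = 0.239). All 3 probes gave it, at -0.61 to -0.56, and only the brightest separated the groups. It was -0.22 within slide 2 and -0.83 within slide 3, and -0.16 with normexp and percentile scaling. TIMP2, which inhibits MMP2 and takes part in its activation, had CD levels of 2.19, 1.71 and 2.22 and HFHSD levels from 1.16 through a median of 1.87 to 2.17. The groups overlapped, with HFHSD 5 lowest, and the difference was -0.23 (SE 0.26, adjusted p = 0.744). The TIMP1 minus MMP2 difference within an array, chosen after the values were seen and not tested, moved by -0.54, and its CD and HFHSD values did not overlap.

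Of the ADAMTS proteases, ADAMTS8, which can cleave aggrecan, varied more between the HFHSD animals than any other tested matrix gene. Its CD levels were 3.14, 1.08 and 1.13. In HFHSD, HFHSD 2 and HFHSD 4 were at 2.97 and 2.94, and the other 4 animals were between -3.83 and -2.14. The SD in HFHSD was 3.21, where the 90th percentile over all tested probes was 1.02. The difference of -2.89 had an SE of 1.67 (95% interval -6.61 to 0.84, adjusted p = 0.442), and it was -4.14 within slide 2 and 1.87 within slide 3. It was -1.32 with slide as a fixed block, -1.79 without slide 1, and -1.25 and -1.46 with normexp and percentile or quantile scaling. It rests on 1 probe, which was well above background on 3 of 3 CD and 5 of 6 HFHSD arrays. ADAMTS1, which cleaves versican and aggrecan, had CD levels of 0.64, 0.029 and 0.16 and HFHSD levels from -1.0 through a median of -0.16 to 1.46. The groups overlapped and the difference was -0.25 (SE 0.45, adjusted p = 0.846). It was -0.54 without HFHSD 1, -0.049 without HFHSD 4, -0.073 without CD 1 and -0.47 with slide as a fixed block. HFHSD 1 was highest on both of its probes.

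**Figure D4:**
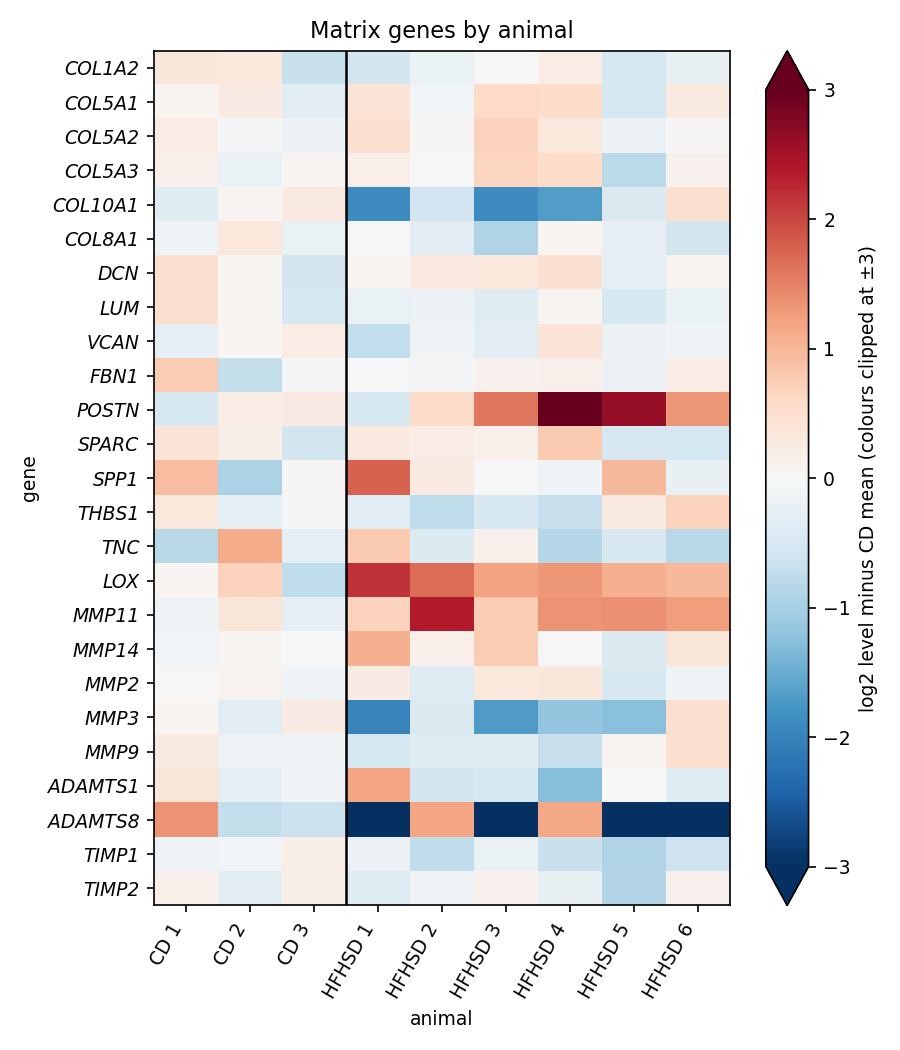
Log2 level of each of the 25 tested matrix genes (rows) in each animal (columns), minus the mean of the CD animals, with colours clipped at 3 on either side. LOX and MMP11 are above the CD mean in all 6 HFHSD animals and TIMP1 is below it in all 6, while POSTN, COL10A1, MMP3 and ADAMTS8 differ between HFHSD animals.

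Of the 17 matrix genes well above background on all 9 arrays, CD 1 had the highest CD value in 11, and for COL1A2, DCN, LUM and SPARC the CD animals ran in the same order, CD 1 highest and CD 3 lowest. HFHSD 5 had the lowest HFHSD value in 9 of the 17. The median deviation from the gene's mean over all arrays was 0.33 in CD 1 and -0.34 in HFHSD 5, beside 0.032 and -0.055 over all tested probes in the same arrays. CD 1 was also the array with the lowest share of probes above background, and HFHSD 5 lay on the slide scanned on another day. Their part in these orders was not tested.

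Other genes of the matrix pathway were counted by list. At the array-wide share of 0.995% of named genes passing, a count of 0 in lists of 3 to 9 genes says nothing particular about a list. Of 9 tested genes of matrix-inducing signals, 3 were higher and 6 lower in HFHSD, and 0 passed in either direction. SMAD2, which carries the TGF-beta signal, differed by 0.60 (adjusted p = 0.188), CTGF, a matricellular target of TGF-beta, by -0.64 (adjusted p = 0.190) and the receptor TGFBR1 by 0.51 (adjusted p = 0.362). SMAD2 and TGFBR1 were each well above background on 2 of 3 CD arrays. Of 3 tested genes of collagen folding and processing, 0 passed: FKBP10 differed by -0.11, P4HA1, a subunit of the enzyme that hydroxylates collagen prolines, by 0.10 and SERPINH1, the collagen chaperone HSP47, by -0.0084. Of 9 integrins and matrix receptors, 0 passed, with SDC4, a heparan sulphate proteoglycan of the cell surface, closest at -0.82 (adjusted p = 0.180). DDR1, a collagen receptor, was at -0.37. ITGB6 was at 1.72 but was well above background on 0 of 3 CD arrays. Of 5 plasminogen system genes, 0 passed: PLAU, the urokinase, differed by -0.53 (adjusted p = 0.421), SERPINE2 by 0.47 and PLG, well above background on 1 of 3 CD arrays, by 0.995. Of 4 further matrix genes, 0 passed: TNXB, a tenascin, differed by -0.70 (adjusted p = 0.316), ASPN by -0.39 and MGP by 0.34.

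Marker genes of other cells of muscle were read beside these values. Of 3 tested fibroblast and progenitor markers, all 3 were higher in HFHSD and 0 passed. The count of 3 includes THY1, which met the brightness filter only through HFHSD, where 5 of 6 arrays were well above background. CD34 differed by 0.76 (adjusted p = 0.294), THY1, well above background on 1 of 3 CD arrays, by 0.51 (adjusted p = 0.256) and PI16 by 0.14. Their summed linear level ran from 1.02 to 2.01 times the array's 75th percentile in CD and from 1.58 to 3.03 in HFHSD. This sum follows mainly CD34, whose mean log2 level in CD was -0.013, beside -2.14 for PI16 and -3.80 for THY1. In HFHSD, CD34 was at least 0.31, whereas PI16 and THY1 were at most -1.12 and -2.88. Of 8 adipocyte markers, 7 were higher and 0 passed, with a median difference of 1.10, and 5 had an unadjusted limma p under 0.05. Over all named genes, 18.4% had such a p. PCK1 went the other way, by -1.75 (adjusted p = 0.460), with CD values from -0.71 to 5.02. ADIPOQ, the adipokine adiponectin, differed by 2.47 (adjusted p = 0.113), CIDEC, a lipid droplet protein, by 2.06 (adjusted p = 0.115) and PPARG, the regulator of fat cell formation, by 0.96 (adjusted p = 0.119). The groups did not overlap for CIDEC, PPARG and LIPE, where 13.1% of all named genes did not overlap. The summed level of the adipocyte markers ran from 92.3 to 118 in CD and from 113 to 371 in HFHSD. Summed levels follow the brightest markers of a list, here mainly LIPE and FABP4. Their mean log2 levels were 5.47 and 5.65 in CD and 6.67 and 5.97 in HFHSD. The other adipocyte markers had means of at most 1.46 in either group. The highest CD value of PCK1, 5.02, was near the CD means of LIPE and FABP4, so it also weighs in the CD sums. PLIN1 was well above background on 0 of 3 CD and 5 of 6 HFHSD arrays, so it met the brightness filter only through HFHSD. The counts of 7 and 5 and the median of 1.10 include PLIN1, so they are not free of that filter. All 6 macrophage markers and all 4 smooth muscle and pericyte markers were lower, with medians of -0.26 and -0.39, and 0 passed. DES, at -0.19, is on the smooth muscle list and also on the muscle fibre list, so it is counted in both. The summed macrophage level was 14.9 to 25.2 in CD and 8.14 to 24.4 in HFHSD, and the summed smooth muscle level, which includes DES, was 1678 to 2541 and 1363 to 1794. Of 5 endothelial markers 2 were higher and 3 lower, with a summed level of 29.9 to 31.5 in CD and 22.4 to 38.0 in HFHSD. The satellite cell list had 1 tested marker, MYOD1, at -1.93 (adjusted p = 0.0863), which was well above background on 2 of 3 CD and 3 of 6 HFHSD arrays. The cartilage and tendon list had 2, ACAN at 0.75 and SOX9 at -0.26, the latter well above background on 1 of 3 CD and 2 of 6 HFHSD arrays. Of the 8 muscle fibre markers 1 was higher and 7 were lower and 0 passed. TNNT3, a fast-fibre troponin, differed by -1.04 (adjusted p = 0.108) and MYH2, a fast myosin, by -0.996 (adjusted p = 0.158), both without overlap, and the summed level was 8947 to 11831 in CD and 7084 to 9151 in HFHSD. No blood marker had a named probe. The part of these cell types in the values of LOX, MMP11, POSTN and TIMP1 was not tested.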

How the data were processed

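Spot brightness was read by the authors with Feature Extraction 10.7.3.1 from Agilent, per the file headers. Its processed signal, a linear intensity from which background has been removed, was deposited for each array without scaling across arrays. A further deposited table held the same intensity values, with 0 spots differing on each array, so it is linear and uncentred, with column medians from 13.0 to 40.0.

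Control and outlier-marked spots were left out, and spots of a probe were averaged in log2. The array's 75th percentile was subtracted. Probes well above background on at least 3 arrays were tested with limma 3.58.1 in R 4.3.3 (lmFit, eBayes, two-sided, 9 arrays, no covariate), with Benjamini-Hochberg adjustment at 0.05. The code was tested on simulated data.

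Accessions named 6884 probes through the RefSeq table of Sscrofa11.1, used for names only. Coordinates are left out since no build is named in the files. The members, lists and tests were chosen with earlier results of these data known. Per animal values are given for matrix genes with a passing probe and the 3 of smallest p per role, and differences for the 3 of smallest p per pathway list. Pair differences, the marker genes named and some further genes were chosen after their values were seen. Alternatives were other scalings, normexp background correction (offset 50, on the median signal, since the mean signal is not among the columns used here), other filters, slide as a block, array weights, a variance trend, the mean of a gene's probes and leaving out arrays. The number of arrays limits the precision.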

Additional observations from a re-analysis of the deposited data

How the results depend on the processing

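No paired analysis was possible because the labels give the animals no numbers shared between the groups. Under the alternatives, 0 matrix genes passed, except 1 (LOX) with only probes above background on all arrays and 1 (MMP11) with slide as a random block. Fewer probes, 15847, were tested in the first setting. The unadjusted limma p of LOX was 0.0017 there, beside 0.0030 in the main fit. Why LOX and MMP11 passed in these settings was not tested. The median over matrix genes, -0.17, turned to 0.055 with normexp and percentile scaling, a setting chosen, like all with normexp and leaving out slide 1, after seeing the files. That setting moved the median of all tested probes by -0.15, and testing all probes without a filter moved it by -0.18. Leaving out single arrays gave medians from -0.17 to -0.0067.

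The number of probes passing over the whole array, 344, was 88 with normexp and percentile scaling, 856 with normexp and quantile normalisation, 66 with no filter, 736 with probes above background on all arrays, 84 and 677 with slide as a fixed and random block, 612 with the variance trend, 1205 with array weights and 128 without slide 1. Without single arrays it ran from 21 to 359. The share of these calls that were higher, 56.4%, was 71.6% with normexp and percentile scaling and 38.2% with probes above background on all arrays.

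Signs of gene differences turned with quantile normalisation for MMP2 (0.092) and FBN1 (-0.0057). With normexp and percentile scaling they turned for COL5A1 (-0.20), COL1A2 (0.14), THBS1 (0.16), MMP2 (0.40), COL5A3 (-0.021), MMP9 (0.057), TIMP2 (0.012), FBN1 (-0.13) and LUM (0.055). They turned with normexp and quantile normalisation for MMP2 (0.082) and FBN1 (-0.043), with the percentile over probes above background on all arrays for MMP2 (0.069) and with array weights for MMP2 (0.037). With slide as a fixed block they turned for TNC (0.058) and FBN1 (-0.21), with slide as a random block for FBN1 (-0.088) and without slide 1 for MMP2 (0.13). With the mean of a gene's probes they turned for COL5A1 (-0.0023), FBN1 (-0.0046), LUM (0.070), SPP1 (-0.044) and THBS1 (0.45). Leaving out single arrays gave -0.090 to 0.077 for MMP2, -0.21 to 0.26 for SPARC, -0.49 to 0.018 for LUM, -0.69 to 0.28 for TNC, -0.031 to 0.91 for SPP1, -0.31 to 0.42 for FBN1 and -0.12 to 0.40 for DCN. In all, 35 of 541 gene values turned, in 13 genes, and the cause was not tested. The sign held in every alternative run for the other 12 genes, LOX, MMP11, TIMP1, POSTN and ADAMTS8 among them. Arrays near background, CD 1 most, limit the dim probes.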
